A study of Mus musculus with 11 samples.

Results

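Among 26512 probes measured in whole liver RNA of iAST mice, 5 are described here that behaved like a switch. All 4 arrays of Sorafenib for 83 d were high and all 7 other arrays were low, relative to the probe's own levels. Low is meant within a probe only, since ILMN_2933112 lay far above the array medians on every array. These probes, ILMN_2513870, ILMN_2612117, ILMN_2665411, ILMN_2933112 and ILMN_3005740, were selected on their own measured levels. A probe was taken when its lowest 83 d array exceeded its highest other array by a gap of more than 1 log2 unit, and when that gap was also wider than the range of the 83 d arrays and the range of the other 7. All levels in that choice are log2(intensity + 16) after quantile normalization, which gives every array the same set of values. Since the choice rests on the contrast of 83 d with the other groups, that contrast is described below and not tested. The choice asked for a wide gap and narrow ranges, so the standard errors of that contrast are no measure of support. Only Illumina identifiers were at hand for naming the probes. Their genes, the roles of those genes and the cell types that express them were not analysed here.

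The 3 groups were Sorafenib by mouth at 60 mg/kg for 83 d, the same dose for 14 d, and vehicle for 14 d. They held 4, 4 and 3 liver arrays. All mice were labelled C57BL6n, aged 12 to 15 weeks, and all samples were labelled tumour liver. Which moment of the experiment that age refers to is not stated. The 83 d and vehicle groups differed in both drug and time, with no vehicle arrays at 83 d analysed here, so length of exposure, age and tumour stage cannot be told apart. RNA came from whole liver lysates, in which a higher level per cell and a larger share of cells of one type cannot be told apart. Nothing in the labels ties arrays to separate mice, so the spread between arrays may be technical. A liver counted below is therefore a single array, and n is a number of arrays.

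Sorafenib inhibits RAF kinases as well as the VEGF and PDGF receptors, and thereby acts both on tumour cells and on the vessels that feed them. It is used against hepatocellular carcinoma, and tumours that respond at first commonly escape it under longer exposure. As published for the model, iAST mice carry an inducible SV40 large T antigen under control of the albumin promoter, so that hepatocytes become tumorigenic in an adult liver. How and when the transgene was induced in these mice is not given in the sources used here.

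Each array gave 1 intensity per probe, with array medians of 98.7 to 99.9. The lowest intensity in the table was 74.1, so a background remained in all values, and a probe near 100 lay where most probes lay. Detection calls were not used here. The arrays were on a pair of chips: 8 on a shared chip, which held all 83 d arrays, all vehicle arrays and 14 d replicate 4, and 3 on a second chip, which held 14 d replicates 1 to 3. With limma and an adjusted p under 0.05, 1.58% of all probes were called higher at 83 d than with vehicle and 0.917% higher than at 14 d. The calls between 83 d and 14 d in either direction numbered 378, but 96 with the chip as a term, 75 on the shared chip alone, 194 without 83 d replicate 1, 227 without 83 d replicate 2 and 250 without 14 d replicate 3. Those between 83 d and vehicle numbered 763, but 483 when vehicle replicate 1 was left out and 496 when replicate 3 was. The 5 probes were chosen from those same contrasts, so their calls there carry no information and are not given.

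ILMN_2612117 had the widest gap. Its intensity was 1874, 1952, 3193 and 4664 in 83 d replicates 1 to 4, against 237, 128, 204 and 212 in 14 d replicates 1 to 4, and 135, 185 and 107 in vehicle replicates 1 to 3. Every 83 d liver was far above the others, while the 14 d and vehicle livers overlapped. The mean intensity at 83 d was 20.5 times that with vehicle and 15.0 times that at 14 d. From the log2 means, the measure used for the folds of the other probes, it was 17.8-fold and 13.3-fold. Its log2 level averaged 11.42 ± 0.62 (SD, n = 4) at 83 d, 7.69 ± 0.35 (SD, n = 4) at 14 d and 7.27 ± 0.34 (SD, n = 3) with vehicle. A gap of 2.92 on the log2 scale parted the lowest 83 d liver, at 10.90, from the highest other liver, 14 d replicate 1 at 7.98. The 83 d arrays themselves ranged over 1.30 and the other 7 over 1.03, so even for this probe the 83 d livers were far from equal.

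ILMN_2933112, alone among the 5, had intensities far above the array medians in every liver. Its intensity was 10762, 9179, 10695 and 12236 in 83 d replicates 1 to 4. At 14 d it was 2170 in replicate 1, 790.4 in replicate 2, 921 in replicate 3 and 1129.6 in replicate 4, and with vehicle it was 868, 795 and 696. The 83 d livers were close together, with an intensity CV of 11.6%, and so were the vehicle livers at 10.99%, whereas the 14 d livers had a CV of 50.1%, with replicate 1 well above the rest of its group. The log2 level averaged 13.37 ± 0.17 (SD, n = 4) at 83 d, 10.19 ± 0.65 (SD, n = 4) at 14 d and 9.65 ± 0.14 (SD, n = 3) with vehicle. The 83 d mean was 3.73 ± 0.23 (SE) above vehicle and 3.18 ± 0.21 (SE) above 14 d on the log2 scale, or 13.3-fold and 9.07-fold. The ratios of mean intensity, 13.6 against vehicle and 8.56 against 14 d, were close to those folds. The gap was 2.06, set by 14 d replicate 1, and the range of the other 7 arrays, 1.60, narrowed to a span of 9.51 to 10.16 without that liver.

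ILMN_2665411 was high at 83 d and showed an uneven low state. Its intensity was 1431, 1399, 2321 and 1708 in 83 d replicates 1 to 4, against 434, 289.8, 240.5 and 224 in 14 d replicates 1 to 4, and 154, 250.4 and 168 in vehicle replicates 1 to 3. The 14 d and vehicle livers overlapped, since 14 d replicates 3 and 4 lay below vehicle replicate 2, and 14 d replicate 1 was clearly the highest of the 7. The log2 level averaged 10.72 ± 0.35 (SD, n = 4) at 83 d, 8.24 ± 0.41 (SD, n = 4) at 14 d and 7.66 ± 0.34 (SD, n = 3) with vehicle. The 83 d mean lay 3.06 ± 0.21 (SE) above vehicle, 8.36-fold, and 2.48 ± 0.20 (SE) above 14 d, 5.59-fold. Its gap of 1.62 exceeded the range of the other 7 arrays, 1.42, by only 0.21, the narrowest margin of the 5. After a normexp background correction the gap, 1.82, was under the wider range, 2.04.

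ILMN_2513870 combined the step with an even low state. Its intensity was 715, 431, 469.7 and 725 in 83 d replicates 1 to 4, against 113, 102, 107 and 109.9 in 14 d replicates 1 to 4, and 105, 103 and 107 in vehicle replicates 1 to 3. The vehicle livers lay within the range of the 14 d livers, and all 7 were close to the array medians, where a transcript at a low level and one that is absent look alike. The log2 level averaged 9.19 ± 0.39 (SD, n = 4) at 83 d, 6.95 ± 0.06 (SD, n = 4) at 14 d and 6.92 ± 0.03 (SD, n = 3) with vehicle. The differences were 2.27 ± 0.14 (SE) against vehicle and 2.24 ± 0.13 (SE) against 14 d, or 4.84-fold and 4.73-fold. With low levels so near the array medians, these folds are probably understated, but the background was not measured. The gap was 1.78, against a range of 0.74 among the 83 d arrays and 0.14 among the other 7.

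ILMN_3005740 had the smallest step. Its intensity was 367, 262, 279.9 and 404 in 83 d replicates 1 to 4, against 104, 111, 103 and 116 in 14 d replicates 1 to 4, and 96.6, 95.1 and 95.3 in vehicle replicates 1 to 3. The 83 d livers were again apart from all others, and here the 14 d livers, too, lay above all vehicle livers, though by few intensity units. The log2 level averaged 8.40 ± 0.29 (SD, n = 4) at 83 d, 6.96 ± 0.07 (SD, n = 4) at 14 d and 6.81 ± 0.01 (SD, n = 3) with vehicle. The 83 d mean was 1.60 ± 0.11 (SE) above vehicle, 3.02-fold, and 1.44 ± 0.10 (SE) above 14 d, 2.72-fold. The vehicle intensities lay below the array medians, so these folds depend on the background that remained and on the offset of 16. With an offset of 1 the log2 difference from vehicle was 1.74, and after a normexp background correction it was 2.97. The folds thus probably understate any change in transcript, but the background itself was not measured. Its gap of 1.07 was just over the threshold of 1, and with an offset of 50 in place of 16 it was 0.90, under the threshold.

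**Figure D1:**
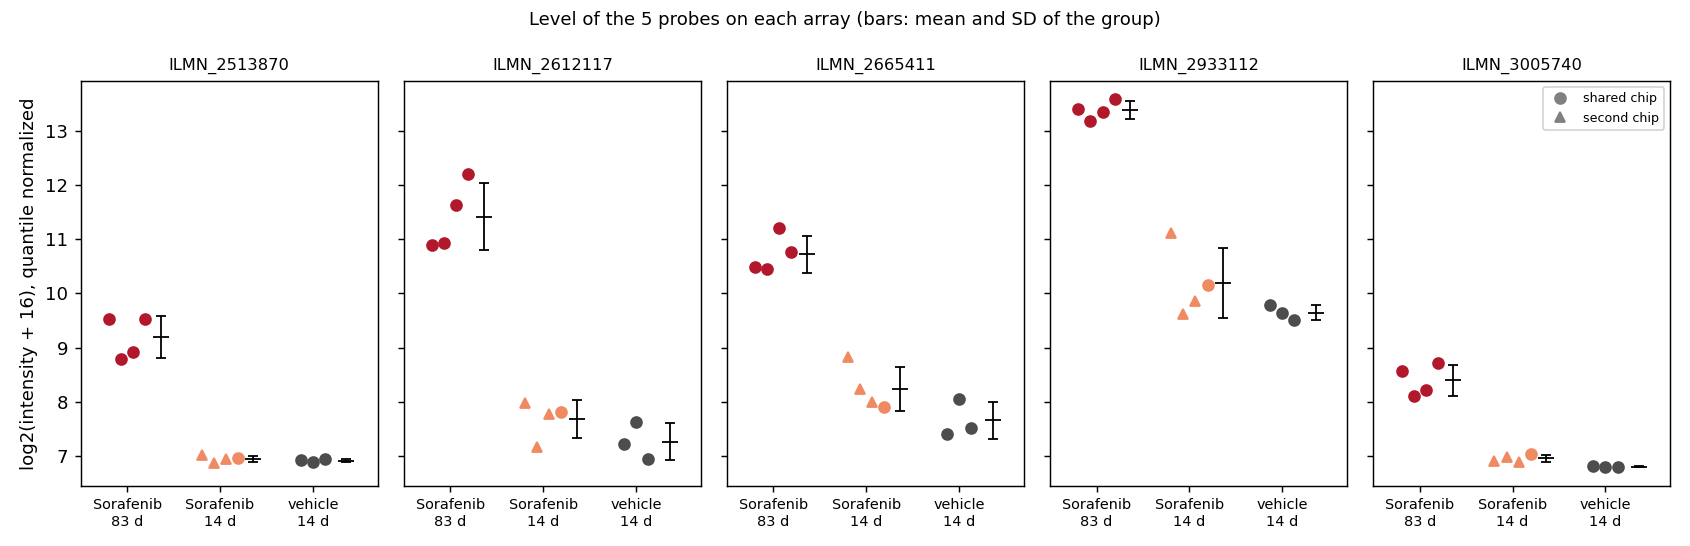
Quantile-normalized log2(intensity + 16) of the 5 probes on the 11 arrays, with Sorafenib 83 d, Sorafenib 14 d and vehicle 14 d from left to right and replicates in order within a group. Circles are arrays of the shared chip, triangles arrays of the second chip, and bars the mean and SD of a group; in each panel the 4 arrays of 83 d lie above the other 7, with a smallest gap of 1.07 for ILMN_3005740.

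Folds of the dim probes depend on the background that was left in the intensities. After a normexp background correction, chosen after seeing the data, the log2 difference of 83 d minus vehicle was 3.59 for ILMN_2513870, 2.97 for ILMN_3005740, 5.21 for ILMN_2612117 and 3.74 for ILMN_2665411. The corresponding difference for ILMN_2933112 was 3.87, close to its uncorrected 3.73. The smallest difference from vehicle under any offset or correction tried was 1.35, for ILMN_3005740 with an offset of 50.

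The number of probes selected depended on the wording and the arrays. In 370 probes, 1.40% of the table, all 83 d arrays lay above the other 7; a gap of more than 1 was found in 6 of them. Besides the 5, this was ILMN_1214531, with a gap of 1.61, which missed the choice because its other 7 arrays ranged over 2.15. Its log2 level was 12.12, 11.78, 10.86 and 10.93 in 83 d replicates 1 to 4, against 9.25, 7.87, 7.96 and 7.38 in 14 d replicates 1 to 4, and 8.10, 7.10 and 7.25 in vehicle replicates 1 to 3. The highest of its low livers was again 14 d replicate 1. Next by gap was ILMN_3076439, just under the threshold at 0.96, with log2 levels of 9.97, 9.44, 8.92 and 9.30 in 83 d replicates 1 to 4, against 7.96, 7.14, 7.43 and 7.54 in 14 d replicates 1 to 4, and 7.34, 7.37 and 7.29 in vehicle replicates 1 to 3. By the measure used here for likeness, the gap over the 11 arrays, these were the nearest probes. The third to the fifth nearest had gaps of 0.85 to 0.91. Ranked instead by how far the gap exceeded the wider range, ILMN_2643032 led the probes outside the 5, at 0.34. That was more than the 0.21 of ILMN_2665411, but the gap of ILMN_2643032 was 0.71, under the threshold. The criterion was met by 12 probes when 83 d replicate 3 was left out and by 9 when 14 d replicate 1 was left out, the 5 among them in both cases. On the shared chip alone, where 14 d has 1 array, 14 probes met it, and after the normexp correction 9 did. If the gap had to exceed the wider range by more than 1 log2 unit, only ILMN_2612117 and ILMN_2513870 would qualify.

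**Figure D2:**
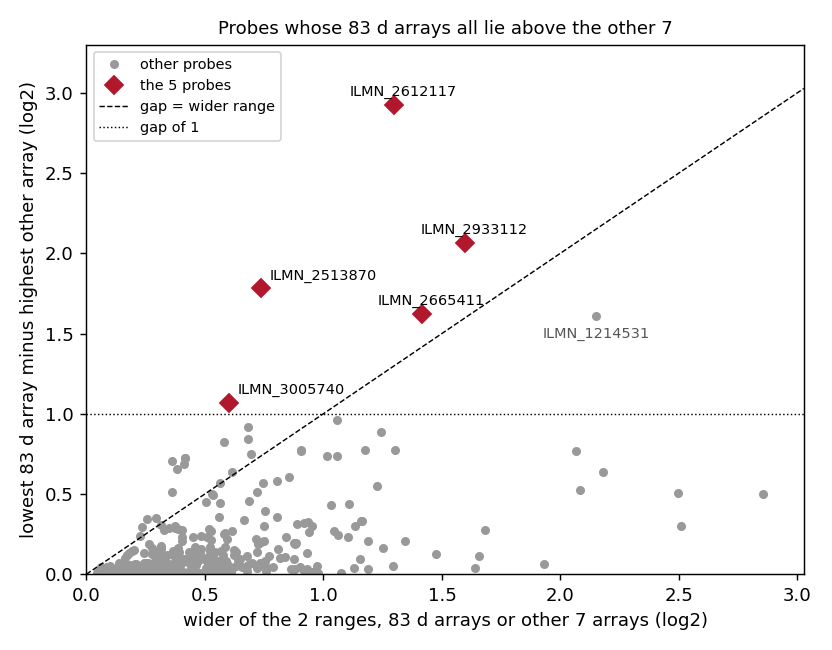
Each point is 1 of the 370 probes whose 4 arrays of 83 d all lay above the other 7; the y axis is the gap between the lowest 83 d and the highest other array, and the x axis the wider of the ranges within the 83 d arrays and within the other 7, both in log2 units. The 5 probes (diamonds) lie above both the dotted line at a gap of 1 and the dashed line where gap and range are equal, and ILMN_1214531, at a gap of 1.61 and a range of 2.15, lies above the dotted line only.

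No probe showed a step of this kind in the opposite direction. In 375 probes, 1.41%, all 83 d arrays lay below the other 7, but the largest such gap was 0.58, and 0 probes passed a gap of 1. With the same criterion turned to the other groups, 0 probes were high in all 14 d livers alone and 0 were low in them alone, with largest gaps of 0.50 and 0.49. For vehicle, 1 probe was high in its livers alone, with a gap of 1.23. Among probes low with vehicle alone, 2 had a gap above 1, up to 1.38, and 0 of them met the criterion on the ranges as well. The vehicle group had 3 arrays and the others 4, so these counts are not on equal terms, and no test was made of them.

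The 83 d livers were not equally high, and their order was partly shared. ILMN_2513870, ILMN_2933112 and ILMN_3005740 placed the 4 arrays in 1 order, with replicate 4 highest, then 1, then 3, and replicate 2 lowest. Relative to each probe's own 83 d mean, replicate 4 stood at 0.34, 0.20 and 0.31 on the log2 scale for these probes, and replicate 2 at -0.40, -0.20 and -0.29. Among the 365 other probes with all 83 d arrays above the rest, 16 (4.38%) had that order. The order was picked because these 3 probes share it, so that share does not measure how unusual the sharing is. ILMN_2513870 and ILMN_3005740 ran closest together: after each was centred on its 83 d mean, their difference varied by 0.27 over the 4 arrays, against 0.30 to 1.34 for the other pairs among the 5. Whether these probes target the same transcript could not be read from the files.

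ILMN_2612117 and ILMN_2665411 ordered the 83 d livers differently. For ILMN_2612117 replicate 4 was highest, at 0.78 above its mean, and replicate 1 lowest, at -0.52. For ILMN_2665411 replicate 3 was highest, at 0.48, and replicate 2 lowest, at -0.28. Replicate 4 was thus the highest 83 d liver in 4 of the 5 probes and replicate 2 the lowest in 4, compared with 25.2% and 24.7% of the 365 other probes. With 4 arrays these orders are a description, with no test.

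**Figure D3:**
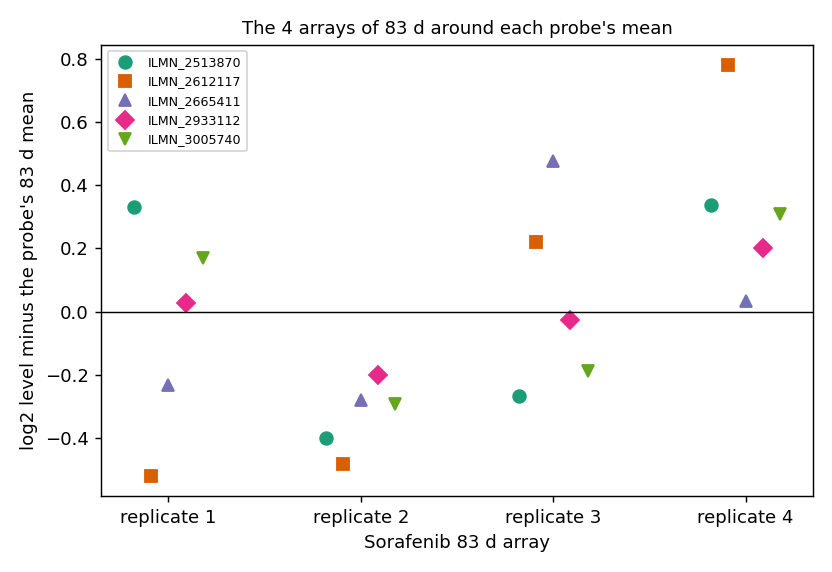
Log2 level of each probe on the 4 Sorafenib 83 d arrays (x axis) minus that probe's mean over them (y axis), 1 symbol per probe. Replicate 2 lies below 0 for all 5 probes and replicate 4 above 0 for all 5, while replicate 1 lies above and replicate 3 below 0 for the 3 probes that share an order, and the reverse holds for ILMN_2612117 and ILMN_2665411.

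Whether the probes had begun to change at 14 d was asked by comparing 14 d with vehicle, the contrast that the choice used least. It is not independent of the choice, which asked that these 7 arrays lie close together and so favours small differences. None of the 5 passed (limma, Benjamini-Hochberg over 26512 probes, adjusted p under 0.05), while 1.17% of all probes (309) did in either direction. That number was 187 without an intensity trend, 199 without vehicle replicate 1, 6 with the chip as a term and 2 on the shared chip alone. At an unadjusted p under 0.05, where 9.76% of all probes passed, 2 of the 5 would have passed, ILMN_2665411 with a limma p of 0.0128 and ILMN_2933112 with 0.0287. ILMN_2665411 differed by 0.58 on the log2 scale, with a 95% interval of 0.14 to 1.02 and a limma adjusted p of 0.284. ILMN_2933112 differed by 0.55 (0.06 to 1.03, limma adjusted p = 0.411) and ILMN_2612117 by 0.42 (-0.11 to 0.95, limma adjusted p = 0.657). The upper ends of these 3 intervals were 0.95 to 1.03. Since the choice limited these differences in advance, the intervals set no upper bound on a change at 14 d. These intervals take no account of the chip, although 3 of the 4 arrays of 14 d were on the second chip and all vehicle arrays on the shared chip. With the chip as a term the difference was 0.24 for ILMN_2665411, 0.52 for ILMN_2933112 and 0.55 for ILMN_2612117. The second chip held 14 d arrays only, so these differences rest on 14 d replicate 4 alone against vehicle. ILMN_3005740 differed by 0.15 (-0.08 to 0.38, limma adjusted p = 0.736) and ILMN_2513870 by 0.03 (-0.26 to 0.32, limma adjusted p = 0.977), both near the background, where the intensity scale compresses differences.

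All 5 estimates were positive, as were 52.1% over all probes, and that of ILMN_2513870 was -0.027 with the replicate number as a block. Only ILMN_3005740 had every 14 d liver above every vehicle liver, at 6.90 to 7.05 against 6.80 to 6.82 on the log2 scale. Over all probes 4.42% showed such a separation in that direction. With 14 d replicate 1, an array of the second chip, left out, the differences of ILMN_2665411 and ILMN_2933112 from vehicle were 0.39 and 0.24. Replicate 1 was the highest of the 7 low livers in 4 of the 5 probes, compared with 23.0% of the 365 other probes with all 83 d arrays on top. In the fifth, ILMN_3005740, the highest was 14 d replicate 4.

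**Figure D4:**
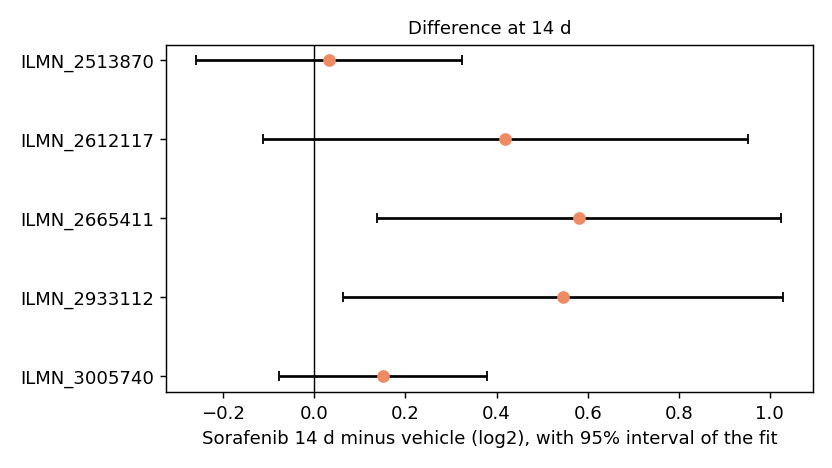
Sorafenib 14 d minus vehicle for each probe in log2 units, as points with the 95% interval of the limma fit as bars; the line marks 0. The intervals, which are not adjusted for the number of probes and take no account of the chip, lie above 0 for ILMN_2665411 and ILMN_2933112 (limma adjusted p = 0.284 and 0.411) and include 0 for the other 3.

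Low livers were measured on both chips, high livers on the shared chip alone. On the shared chip 14 d replicate 4 sat at position A, the 83 d arrays at B to E and the vehicle arrays at F to H. The lowest 83 d array exceeded 14 d replicate 4 on the same chip by 1.82 for ILMN_2513870, 3.08 for ILMN_2612117, 2.54 for ILMN_2665411, 3.01 for ILMN_2933112 and 1.07 for ILMN_3005740. Against the highest vehicle array of that chip the distances were 1.85, 3.27, 2.40, 3.39 and 1.29 in the same order of probes. Within that chip, 14 d replicate 4 stood above the vehicle mean by 0.05, 0.55, 0.24, 0.52 and 0.24. The differences given above with the chip as a term are these same values and no separate result. The 14 d arrays of the second chip spanned the level of replicate 4 for ILMN_2513870, ILMN_2612117 and ILMN_2933112, lay above it for ILMN_2665411 and lay below it for ILMN_3005740. The position on the chip followed the groups, and its part in the levels was not tested.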

How the data were processed

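Biotin-labelled total RNA was hybridised to 1-colour bead arrays, 1 sample per array, per the labels. The deposited values were linear intensities, judging by their range, and their array medians were already close together, at 98.7 to 99.9. How the authors corrected background and normalized is not given in the sources used here. All 11 columns were used. An offset of 16 was added, log2 taken and quantile normalization applied. Fits used limma 3.58.1 in R 4.3.3 (lmFit over the 3 groups, eBayes with an intensity trend, two-sided tests, Benjamini-Hochberg over 26512 probes), checked on simulated data. Standard errors of all differences come from these fits. Plots were made in Python 3.11.15 (matplotlib 3.10.9).

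The 5 probes and the tests were chosen with earlier results of these data known. The planned wording of the choice asked the gap to exceed the wider range by over 1 log2 unit, which 2 of the 5 probes meet; the wording given in the report is the one that yields all 5. Of the nearest other probes, the 2 with the widest gaps are named, and the 1 whose gap most exceeded its wider range. Planned gene and cell type lists needed gene names and were not analysed here. Alternatives covered the offset, normalization, a filter on dim probes, the variance trend, the groups fitted, the chip, the replicate number, each array left out in turn and, added later, normexp background correction.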

Additional observations from a re-analysis of the deposited data

How the results depend on the processing

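Under all 23 alternatives, 0 of the 5 probes were called at 14 d against vehicle (limma). Their limma adjusted p ranged from 0.114 to 0.996. At most 424 of the 26512 probes were called in any of these settings, and the choice favoured small differences in this contrast. These results therefore do not show that the probes were unchanged at 14 d. With the chip as a term, or on the shared chip alone, very few probes of the whole table were called. Those settings could thus hardly have called any of the 5. Signs held throughout, except for ILMN_2513870, which was -0.027 with the replicate block. The replicate number gave no pairing: same-numbered arrays deviated with correlations of -0.10 to 0.12, and 1 of 11 arrays was closest to one of its own number. With the replicate block, 340 probes were called at 14 d against vehicle, 768 at 83 d against vehicle and 359 at 83 d against 14 d, compared with 309, 763 and 378 without it.

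The gap of ILMN_3005740 was 0.90 with an offset of 50, below the threshold of 1. After normexp the gap of ILMN_2665411, 1.82, was under its wider range of 2.04. In each of these settings 4 of the 5 met the choice, and in the other settings in which it was applied with its wording kept all 5 did. Read as a gap exceeding the wider range by over 1, the choice held for 2. An offset of 50 gave 83 d minus vehicle of 2.00 for ILMN_2513870 and 1.35 for ILMN_3005740, and 83 d minus 14 d of 1.98 and 1.24. After normexp, 83 d minus vehicle was 3.59 for ILMN_2513870, 5.21 for ILMN_2612117, 3.74 for ILMN_2665411 and 2.97 for ILMN_3005740. In the same order of probes 83 d minus 14 d was 3.50, 4.43, 2.87 and 2.52. The gaps after normexp were 2.86 for ILMN_2513870, 3.41 for ILMN_2612117 and 1.90 for ILMN_3005740. On the shared chip alone the gaps of ILMN_2665411 and ILMN_2933112 were 2.40 and 3.01. With arrays left out in turn they were 1.62 to 2.20 and 2.06 to 3.01; both were widest without 14 d replicate 1.

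The number of probes in the table that met the choice was 14 on the shared chip alone, 9 after normexp and 5 to 12 with an array left out, with 12 without 83 d replicate 3 and 9 without 14 d replicate 1. At 14 d against vehicle 187 probes were called without an intensity trend, 6 with the chip as a term and 2 on the shared chip. At 83 d against 14 d, 96 were called with the chip as a term and 75 on the shared chip, where 14 d had 1 array, assumed to vary like the other groups. With arrays left out the calls were 199 to 424 at 14 d against vehicle, 483 to 845 at 83 d against vehicle and 194 to 473 at 83 d against 14 d. The lowest counts came without vehicle replicate 1, without vehicle replicate 1 (496 without vehicle replicate 3), and without 83 d replicate 1 (227 without 83 d replicate 2, 250 without 14 d replicate 3). The cause was not tested.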
